A study of Macaca fascicularis with 38 samples.

Results

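Microglia are the resident macrophages of the brain, and the genes described here are 33 that mark them: genes of microglial identity, the 3 subunits of complement C1Q, genes of TYROBP signalling and purinergic receptor genes. They were taken by symbol from the deposited expression table, which lists 31 of them among its 29958 genes; ADORA3 and APBB1IP were not analysed here. The 31 were set apart into 8 genes tied to the homeostatic state of microglia (P2RY12, P2RY13, GPR34, CX3CR1, TMEM119, SALL1, OLFML3 and SELPLG), the 3 C1Q genes (C1QA, C1QB and C1QC) and 20 genes that other myeloid cells share. The class names do not mean that homeostatic or C1Q genes are on in microglia alone.

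Microglia survey brain tissue with purinergic and chemokine receptors, depend on signalling through the CSF1 receptor, and make most of the C1q of the brain, the protein that starts the classical complement cascade and tags synapses for removal. TYROBP is an adaptor that carries an activating motif (ITAM) for receptors such as TREM2 and passes their signal to the kinase SYK. Many of these genes are also on in monocytes, neutrophils and the macrophages at brain borders, so that a tissue level adds up several cell types.

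The study took 2 biopsies of prefrontal cortical area 46 from each cynomolgus macaque (Macaca fascicularis), a first one before a period of voluntary ethanol drinking and a second one after it, and sequenced poly-A RNA from both. The header of the deposited table marks 10 animals as drinkers and 6 as controls, with 5 drinkers and 3 controls in each of cohort 13 and cohort 9. The sample labels give an ethanol treatment to the second biopsy of every animal, controls included, so that the marks rest on the table header alone. Neither genotype, sex, age, ethanol dose nor the time between biopsies is stated in those sources. The comparisons are therefore second biopsies against first biopsies in all 16 pairs, in drinkers and in controls, in cohort 13 and in cohort 9, and the differences between those changes. Since each animal is its own baseline, the pairs measure change over time and surgery along with drinking, and those cannot be told apart within drinkers alone.

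The 32 libraries held 11.84M to 36.73M reads assigned to genes (median 18.29M). Levels are the authors' TPM, which correct for transcript length and library size, and changes are differences of log2(TPM + 1), second minus first, on which the change of a gene at a low level is understated. Mitochondrially encoded genes took 27.1 to 46.1% of TPM in second biopsies (median 36.8%) and 21.7 to 56.4% in first biopsies (median 45.3%), and the share was lower in the second biopsy of 13 of 16 animals. The median change over all 15324 genes tested was 0.17, so values are also given after each library was scaled to the same median log2 level, which moved that median to -0.04. Neuronal markers were higher in second biopsies for 5 of 8 genes and lower for none as deposited, against 32.9% of all genes called higher. After scaling 4 were higher and CAMK2A was lower (-0.39), against 9.7% of all genes higher and 17.1% lower. The summed TPM of the neuronal markers was 4461 to 7472 in second and 2655 to 8495 in first biopsies. The first biopsies of 3 animals stood apart by their content of blood myeloid transcripts (X10203, X10204 and X10200, all of cohort 9).

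All 31 genes were above 0 in all 32 libraries, and they spanned a wide range of abundance. CD74, the invariant chain of MHC class II, had the highest mean level (48.7 TPM over 32 libraries), followed by C1QB (38.4 TPM), C1QA (35.2 TPM) and C1QC (30.3 TPM). The receptors P2RY12 and CX3CR1 stood in the middle at 14.8 and 15.1 TPM, and TMEM119, a surface protein used to tell microglia from other macrophages, was near the bottom at 1.34 TPM. The lowest was DOCK8, a regulator of leukocyte migration, at 1.17 TPM, with a mean of 0.672 TPM in second biopsies alone. DOCK8 therefore passed the filter on low values (a mean of at least 1 TPM) only through its first biopsies, and its calls below carry that limit. CD4, a coreceptor of T cells that macrophages also carry, varied most, 91-fold between its lowest and highest library (0.112 and 10.2 TPM). The spread over animals relative to the mean (coefficient of variation) was larger in first than in second biopsies for 25 of the 31 genes.

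Over all 16 pairs, 19 of the 31 microglia genes were lower in the second biopsy and none was higher at an adjusted p below 0.05 (limma-trend, animal as block, Benjamini-Hochberg over 15324 genes). Of all genes tested in all pairs, 3.69% were called lower and 32.9% higher. After median scaling 25 microglia genes were lower, against 17.1% of all genes lower and 9.7% higher. The median change of the microglia genes was -0.33, or -0.55 after scaling. An unadjusted p below 0.05 was met by 23 genes, of which SALL1 alone was higher, and limma-voom on reads recovered from the TPM called 24 lower, as did limma-trend on TPM recomputed without mitochondrial genes. In biopsies, fewer microglia in the piece taken and less of each RNA per microglial cell cannot be told apart.

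**Figure D1:**
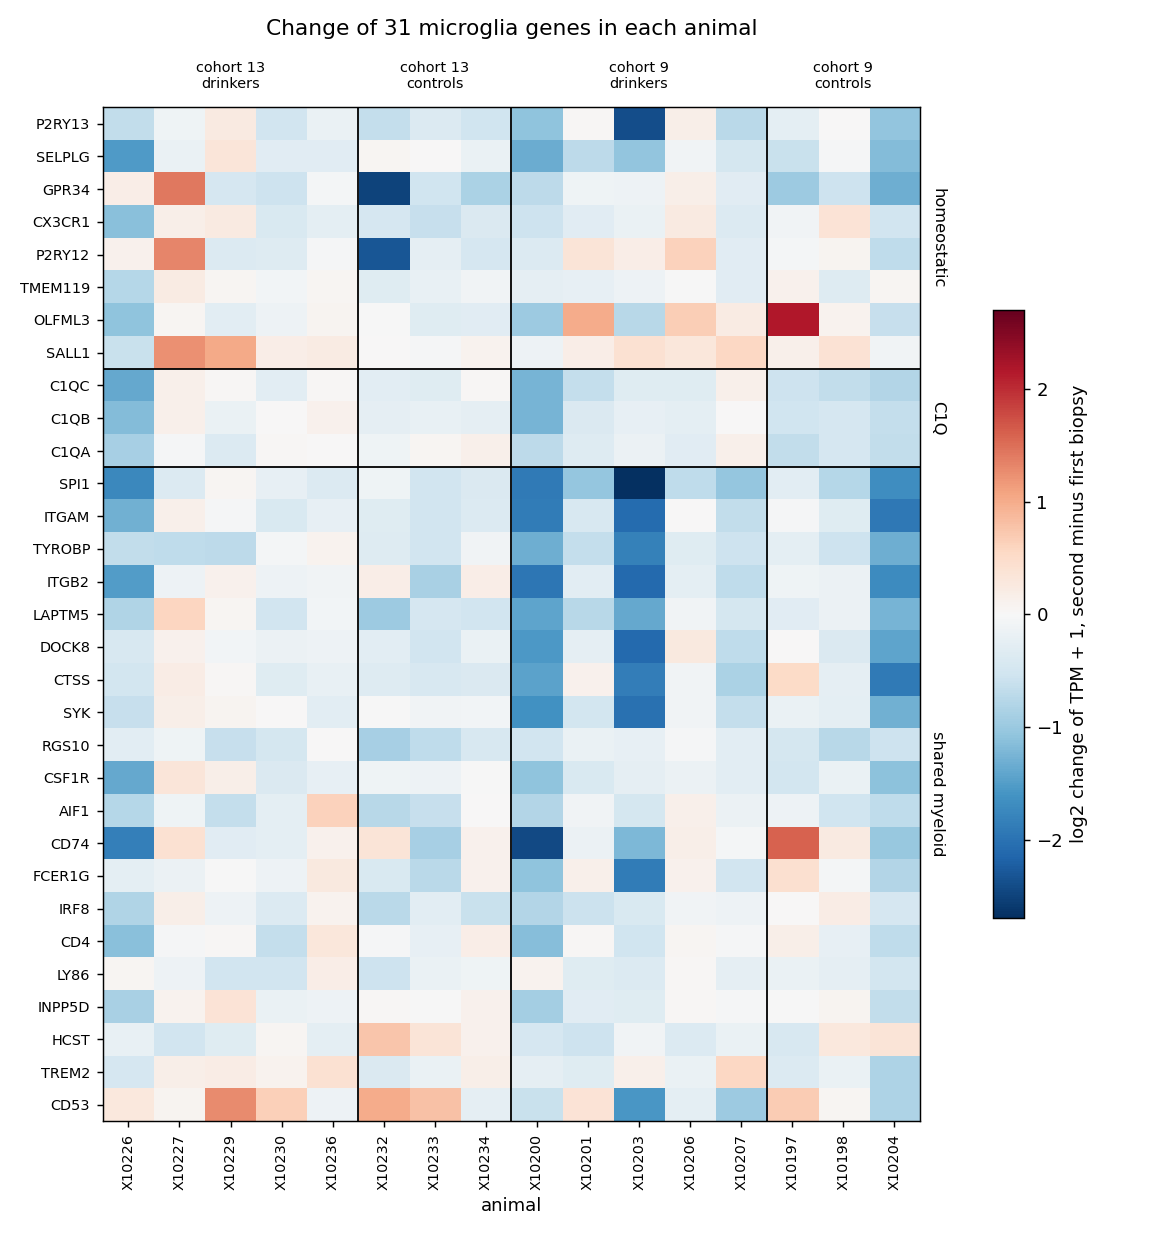
Heat map of the log2(TPM + 1) change, second minus first biopsy, of each of the 31 microglia genes (down the page, by class) in each of the 16 animals (across, by cohort and mark). Blue is lower and red is higher in the second biopsy, and the deepest columns of blue are X10200, X10203 and X10204 of cohort 9 and X10226 of cohort 13.

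The direction held in most animals. Between 12 and 30 of the 31 genes were lower in a given animal's second biopsy (median 23.5), with the fewest in X10227 and the most in X10200, both drinkers. Most of the genes were lower in 14 of the 16 animals, which comprised 8 of 10 drinkers and 6 of 6 controls, and 6 of 8 animals of cohort 13 and 8 of 8 of cohort 9. The median change of the 31 genes in single animals ran from -1.08 to 0.11. For every one of the 31 genes the range of second biopsies overlapped that of first biopsies when all 16 pairs were put together.

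Among the receptors and transcription factors of the microglial lineage, SPI1 had the largest fall. SPI1 encodes PU.1, the factor that sets up the myeloid program. It ran from 2.40 to 5.44 TPM in second biopsies (median 3.49 TPM) and from 2.80 to 27.6 TPM in first biopsies (median 6.76 TPM). The second biopsies lay in a narrow band while the first biopsies reached far above it, highest in X10203, and 15 of 16 animals were lower. The fitted change was -0.86 ± 0.17 (SE, n = 16 pairs; limma-trend, adjusted p = 0.00193). CSF1R, the receptor for the survival factors CSF1 and IL34, ran from 17.2 to 32.3 TPM in second biopsies (median 21.4 TPM) and from 14.3 to 51.2 TPM in first biopsies (median 33 TPM). It fell by 0.36 ± 0.11 (limma-trend, adjusted p = 0.0195), with 14 animals lower. IRF8, a transcription factor that acts with PU.1, had medians of 2.83 and 3.68 TPM in second and first biopsies and a change of -0.31 ± 0.09 (limma-trend, adjusted p = 0.0146).

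The adaptor TYROBP was the gene with the second smallest p. It ran from 10.1 to 25.4 TPM in second biopsies (median 15.4 TPM) and from 15.4 to 41.0 TPM in first biopsies (median 22.9 TPM). All but 1 animal were lower, and the ranges overlapped only between 15.4 and 25.4 TPM. The change was -0.61 ± 0.12 (limma-trend, adjusted p = 0.00168). SYK, the kinase that ITAM adaptors recruit, was a low gene with medians of 1.05 TPM in second and 1.65 TPM in first biopsies, and its highest first biopsy had 7.81 TPM. It changed by -0.47 ± 0.15 (limma-trend, adjusted p = 0.0192).

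The receptors and the other adaptors of this signalling group were not called as deposited. TREM2, the lipid receptor that pairs with TYROBP, ran from 3.62 to 8.27 TPM in second biopsies and from 3.43 to 9.76 TPM in first biopsies, with medians of 5.49 and 5.80 TPM. Its change of -0.09 did not pass the test (limma-trend, adjusted p = 0.461), and 9 of 16 animals were lower. FCER1G, the Fc receptor gamma chain (change -0.31, adjusted p = 0.0762), INPP5D, a phosphatase that dampens this pathway (-0.17, adjusted p = 0.155), and HCST, the adaptor DAP10 (-0.09, adjusted p = 0.462), were not called by limma-trend either. Thus 2 of the 6 genes of the TREM2 and TYROBP group passed as deposited, with a median change of -0.24. After scaling 5 of the 6 passed, with a median of -0.46, and HCST was the one that did not.

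**Figure D2:**
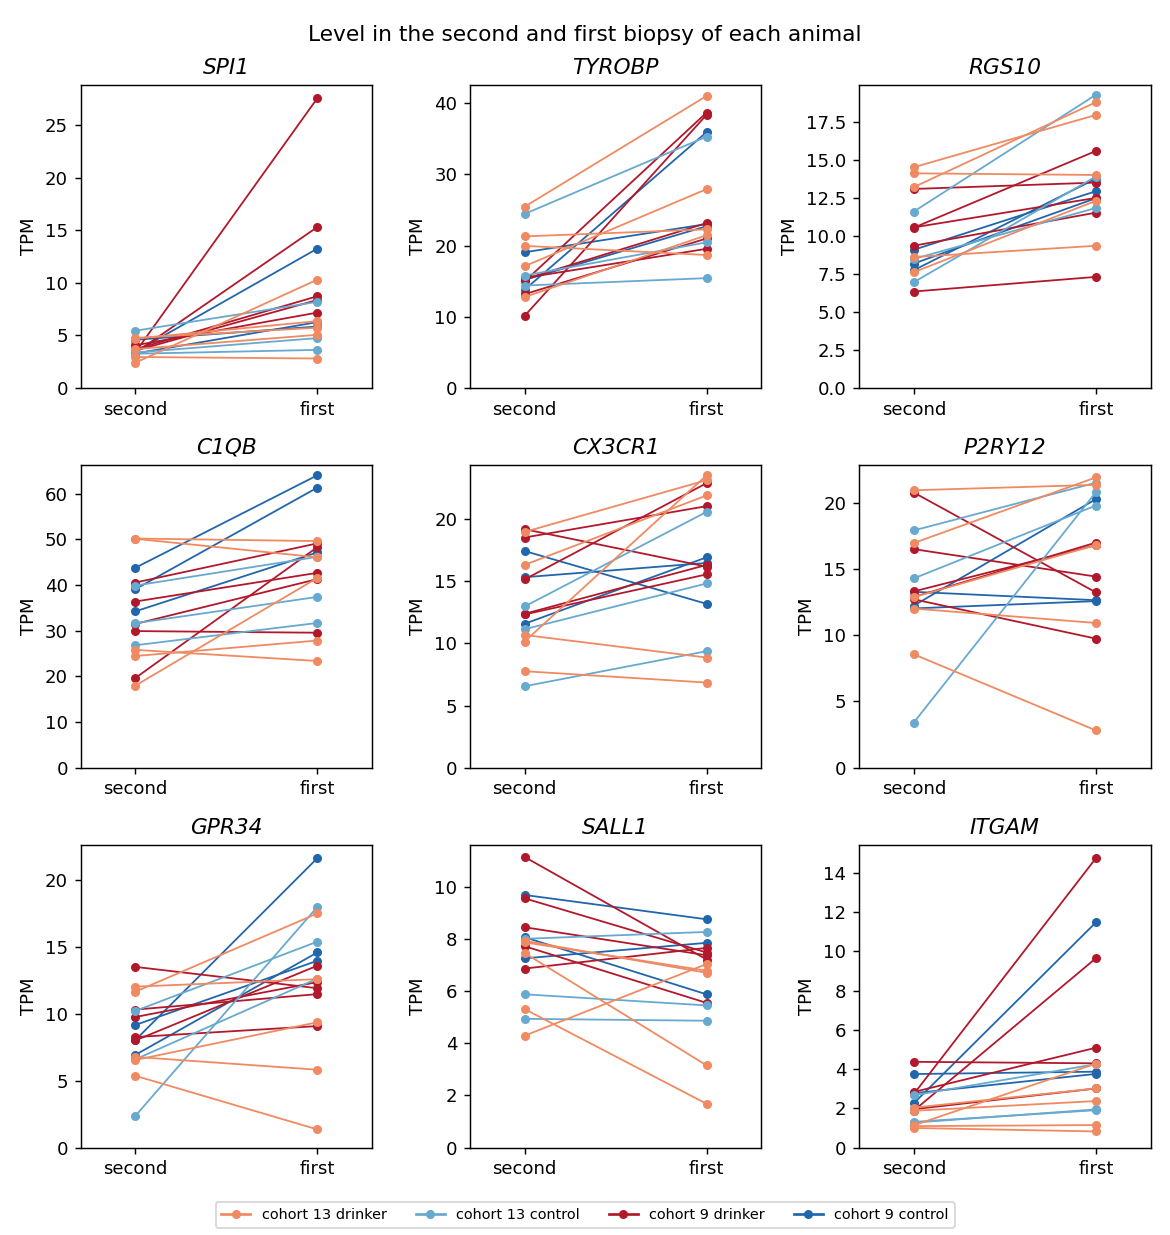
Level in TPM of 9 microglia genes in the second (left) and first (right) biopsy of each animal, 1 line per animal, coloured by cohort and mark. SPI1, TYROBP, ITGAM and RGS10 slope upward toward the first biopsy in most animals, SALL1 slopes the other way in 12 of 16, and P2RY12 and GPR34 each have 1 steep line in each direction.

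Both integrin genes fell. ITGAM (CD11b) and ITGB2 (CD18) form complement receptor 3, which microglia, monocytes and neutrophils all carry. ITGAM ran from 1 to 4.37 TPM in second biopsies (median 2.00 TPM) and from 0.824 to 14.7 TPM in first biopsies (median 3.81 TPM). ITGB2 ran from 2.56 to 6.16 TPM in second biopsies (median 4.11 TPM) and from 2.90 to 21.6 TPM in first biopsies (median 5.46 TPM). Second biopsies of ITGAM stayed inside the lower part of its first range, and those of ITGB2 ran from just below its first range into the lower part. The highest first values of both genes were again those of X10203. The changes were -0.65 ± 0.16 for ITGAM and -0.60 ± 0.17 for ITGB2 (limma-trend, adjusted p = 0.0071 and 0.0146).

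All 3 C1Q genes fell, and by similar amounts. C1QA ran from 18.3 to 44.7 TPM in second biopsies (median 31.2 TPM) and from 24.0 to 61.6 TPM in first biopsies (median 37.6 TPM). C1QB ran from 18.0 to 50.2 TPM in second biopsies (median 33 TPM) and from 23.4 to 64.0 TPM in first biopsies (median 44.4 TPM). C1QC ran from 12.6 to 44.4 TPM in second biopsies (median 25.1 TPM) and from 17.6 to 56.5 TPM in first biopsies (median 35.3 TPM). For each subunit the 2 ranges overlapped over most of their length, and 11, 12 and 11 of the 16 animals were lower for C1QA, C1QB and C1QC. The changes were -0.27 ± 0.09 for C1QA, -0.34 ± 0.10 for C1QB and -0.40 ± 0.11 for C1QC (limma-trend, adjusted p = 0.0218, 0.0141 and 0.0109).

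Of the 8 homeostatic genes, 3 fell. SELPLG encodes PSGL-1, the ligand of P-selectin. It ran from 11.9 to 24.4 TPM in second biopsies (median 16.6 TPM) and from 10.9 to 46.7 TPM in first biopsies (median 25.9 TPM), and changed by -0.47 ± 0.13 (limma-trend, adjusted p = 0.0101). P2RY13, an ADP receptor, ran from 1.48 to 4.26 TPM in second biopsies (median 2.71 TPM) and from 1.99 to 17.3 TPM in first biopsies (median 4.14 TPM), and changed by -0.51 ± 0.15 (limma-trend, adjusted p = 0.0134). CX3CR1, the receptor of the neuronal ligand CX3CL1, ran from 6.55 to 19.2 TPM in second biopsies (median 12.7 TPM) and from 6.85 to 23.5 TPM in first biopsies (median 16.4 TPM). CX3CR1 was lower in 12 animals with wide overlap of the ranges, and changed by -0.27 ± 0.10 (limma-trend, adjusted p = 0.0387). P2RY13 had its highest first level and its lowest change in X10203, while SELPLG and CX3CR1 had theirs in X10226. In cohort 9 the changes of SELPLG, P2RY13 and CX3CR1 were -0.69, -0.67 and -0.18. Without X10203, X10204 and X10200 they were -0.38, -0.16 and -0.03.

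The other 5 homeostatic genes did not pass. GPR34, a lysophospholipid receptor, was lower in 13 of 16 animals with a change of -0.46 (limma-trend, adjusted p = 0.0556). P2RY12, the ADP receptor that drives process extension, ran from 3.41 to 20.9 TPM in second biopsies (median 13.1 TPM) and from 2.82 to 21.9 TPM in first biopsies (median 16.8 TPM), with a change of -0.16 (limma-trend, adjusted p = 0.47). TMEM119 changed by -0.14 and OLFML3, a secreted matrix protein, by -0.01 (limma-trend, adjusted p = 0.12 and 0.96). SALL1, the transcription factor that holds microglial identity, was the one homeostatic gene whose estimate lay above 0. It ran from 4.29 to 11.2 TPM in second biopsies (median 7.80 TPM) and from 1.68 to 8.76 TPM in first biopsies (median 6.91 TPM), and 12 of 16 animals were higher. Its change of 0.24 ± 0.11 did not pass (limma-trend, adjusted p = 0.0816), and after scaling it was 0.03. GPR34 passed after scaling (-0.67, limma-trend, adjusted p = 0.00929), as did TMEM119 (-0.35, limma-trend, adjusted p = 0.00598).

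The rest of the shared myeloid genes comprised regulators, lysosomal and antigen presentation genes. RGS10, which curbs G protein signalling, had the smallest p of the 31 genes. It ran from 6.35 to 14.5 TPM in second biopsies (median 9.23 TPM) and from 7.31 to 19.3 TPM in first biopsies (median 13.2 TPM), and all but 1 animal were lower. The change was -0.41 ± 0.08 (limma-trend, adjusted p = 0.00148). LAPTM5, a lysosomal membrane protein, had medians of 21.5 and 32.5 TPM in second and first biopsies and a change of -0.54 ± 0.13 (limma-trend, adjusted p = 0.00523). Its second biopsies, at 11.8 to 36.1 TPM, lay inside the first range of 8.53 to 58.3 TPM. CTSS, a lysosomal protease (-0.49 ± 0.16, adjusted p = 0.0241), LY86, a partner of RP105 (-0.22 ± 0.07, adjusted p = 0.027), AIF1, which encodes the microglial protein IBA1 (-0.33 ± 0.10, adjusted p = 0.0161), and DOCK8 (-0.49 ± 0.15, adjusted p = 0.0169) also fell by limma-trend.

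The shared genes that did not pass were spread between animals in their own ways. CD74 was lower in 9 of 16 animals (change -0.32, limma-trend, adjusted p = 0.228). Its level was 24.7 TPM in the second and 138 TPM in the first biopsy of X10200, and 122 TPM in the second and 39.6 TPM in the first biopsy of X10197. The 2 animals thus moved in opposite directions by several fold. CD4 changed by -0.25 (limma-trend, adjusted p = 0.0788). CD53, a leukocyte tetraspanin, had an estimate of 0.03 (limma-trend, adjusted p = 0.893), which turned to -0.18 after scaling.

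Taken by class, 13 of the 20 shared myeloid genes, 3 of the 8 homeostatic genes and 3 of the 3 C1Q genes were called lower over all pairs, with median changes of -0.34, -0.21 and -0.34. After scaling the counts were 17, 5 and 3, and the medians -0.56, -0.43 and -0.56.

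The first biopsies of 3 animals held many blood myeloid transcripts. The summed level of 10 genes of monocytes and neutrophils (among them S100A8, S100A9, S100A12, FCN1, VCAN, CSF3R, LYZ, MNDA and CD14) ran from 14.9 to 60.5 TPM in second biopsies (median 33.3 TPM) and from 14.0 to 1563 TPM in first biopsies (median 58.3 TPM). The 3 highest first biopsies were X10203 with 1563 TPM, X10204 with 651 TPM and X10200 with 419.7 TPM, all of cohort 9, against 214.7 TPM in the next (X10207). Over all pairs 6 of the 9 genes tested on that list fell, against 3.69% of all genes called lower. Of these S100A8, FCN1 and CSF3R had means below 1 TPM in second biopsies and passed the filter through first biopsies alone. S100A12 was listed at 0 in all 16 second biopsies. The same 3 pairs held the lowest change of 17 of the 31 microglia genes, which comprised 15 of the 20 shared genes, 1 of the 3 C1Q genes and 1 of the 8 homeostatic genes. In these 3 pairs the median change of the shared genes ran from -1.30 to -0.93, against -0.71 to 0.08 in the other 13 pairs. The median change of the homeostatic genes ran from -0.65 to -0.16 in the 3 pairs and from -0.72 to 0.20 in the other 13, so that those ranges overlapped.

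Without the 3 pairs, chosen after their values were seen, 4 of 30 microglia genes tested were lower over the other 13 pairs, against 1.12% of all genes. They were SPI1 (-0.58, adjusted p = 0.0106), TYROBP (-0.41, adjusted p = 0.0111), RGS10 (-0.40, adjusted p = 0.0154) and ITGAM (-0.35, adjusted p = 0.0356) by limma-trend, all of the shared class. The median change of the 30 genes was -0.23, and 17 had an unadjusted p below 0.05. With the blood myeloid level as a covariate in all 16 pairs, RGS10 and SPI1 alone were called. The share of all genes called with that covariate is not reported here, so this count does not set the microglia genes apart. The estimate for RGS10 was -0.40 without the 3 pairs and -0.41 with the covariate, beside -0.41 as reported above, and that of SPI1 was -0.58 without the 3 pairs, beside -0.86. Another animal, X10226 of cohort 13, held the lowest change of 9 other microglia genes, 5 of them homeostatic and 2 of them C1Q genes. Its first biopsy had a blood myeloid level of 60.0 TPM, the highest among first biopsies of cohort 13 (median 28.3 TPM). In X10226 S100A9 had 0.897 TPM in the second and 24.6 TPM in the first biopsy. The summed red cell markers HBB and ALAS2 had 143.9 and 4408 TPM there. Whether blood content bears on the changes of X10226 was not tested.

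**Figure D3:**
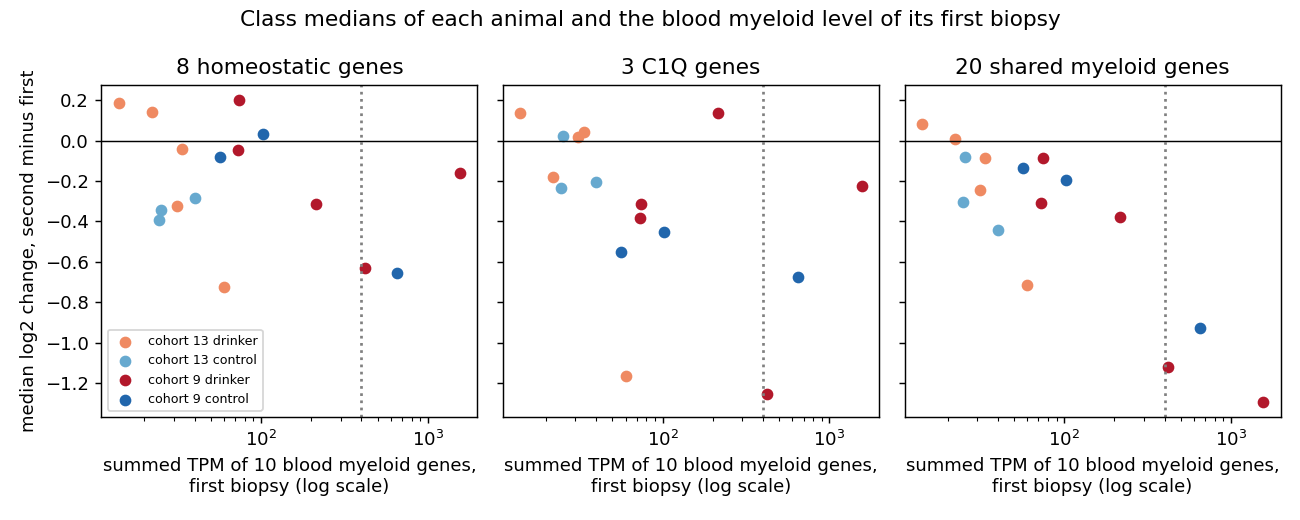
Median log2 change of the homeostatic, C1Q and shared myeloid genes in each animal (vertical axis, second minus first) against the summed TPM of 10 blood myeloid genes in its first biopsy (horizontal log axis), coloured by cohort and mark. The 3 animals right of the dotted line at 400 TPM have shared gene medians of -1.30 to -0.93, below all other animals, and homeostatic medians inside the range of the others.

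Markers of other cells also differed between the biopsies. Of the border macrophage genes, 3 of 5 tested fell, against 3.69% of all genes called lower. They were STAB1 (-0.43, lower in 16 of 16 animals), CD163 (-0.35) and SIGLEC1 (-0.16). SIGLEC1 passed the filter through first biopsies alone (0.963 TPM in second and 1.22 TPM in first biopsies on average). The summed level of the list ran from 8.40 to 33.2 TPM in second and from 10.7 to 39.9 TPM in first biopsies. Of the lymphocyte genes none of 3 tested was called by limma-trend as deposited (0 with an unadjusted p below 0.05). After scaling all 3 were called lower, against 17.1% of all genes (CD3E -0.46, CD8A -0.30 and GZMB -0.59). GZMB passed the filter through first biopsies alone. The sum of the 8 lymphocyte genes ran from 4.50 to 11 TPM in second and from 3.51 to 24.4 TPM in first biopsies. In a fit that also took in marker summaries for astrocytes, neurons and oligodendrocytes (composition covariates), 3 microglia genes were lower. They were RGS10 (-0.40, adjusted p = 0.0207), LAPTM5 (-0.55, adjusted p = 0.0293) and CX3CR1 (-0.39, adjusted p = 0.0377) by limma-trend. The median change of the 31 genes in that fit was -0.36. The share of all genes called in that fit is not reported here, so the smaller count cannot be read as particular to microglia genes. Endothelial markers were not part of that fit. Of the 6 tested 0 were called lower as deposited and 4 after scaling, against 3.69 and 17.1% of all genes.

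In drinkers, 13 of the 31 microglia genes were lower and none higher (limma-trend), against 3.23% of all genes called lower and 32.7% higher. The median change was -0.31, beside 0.20 for all genes. SPI1 ran from 2.40 to 4.76 TPM in second biopsies of drinkers (median 3.61 TPM) and from 2.80 to 27.6 TPM in their first biopsies (median 7.77 TPM), and changed by -1.0 ± 0.22 (limma-trend, adjusted p = 0.00461). TYROBP ran from 10.1 to 25.4 TPM in second biopsies of drinkers (median 15.4 TPM) and from 18.7 to 41.0 TPM in their first biopsies (median 22.7 TPM), and changed by -0.67 ± 0.15 (limma-trend, adjusted p = 0.00579). For both genes 9 of 10 drinkers were lower and the ranges overlapped. The other 11 were SELPLG, ITGAM, ITGB2, RGS10, SYK, LAPTM5, HCST, P2RY13, C1QC, IRF8 and DOCK8. By class these were 10 of 20 shared, 2 of 8 homeostatic and 1 of 3 C1Q genes. After scaling 25 were lower, against 19.4% of all genes. Without X10200 and X10203, the 2 drinkers among the 3 pairs of high blood myeloid level, and the control X10204, SPI1 and TYROBP were the ones called in drinkers.

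In controls, 2 of the 31 genes were lower and none higher by limma-trend, against 0.0522% of all genes called lower and 0.248% higher, and 11 had an unadjusted p below 0.05. RGS10 ran from 6.96 to 11.6 TPM in second biopsies of controls (median 8.34 TPM) and from 11.8 to 19.3 TPM in their first biopsies (median 13.4 TPM). GPR34 ran from 2.37 to 10.2 TPM in second biopsies of controls (median 7.49 TPM) and from 12.7 to 21.7 TPM in their first biopsies (median 15.0 TPM). All 6 controls were lower for both genes and the ranges of the biopsies did not overlap. The changes were -0.63 ± 0.12 for RGS10 and -1.12 ± 0.24 for GPR34 (limma-trend, adjusted p = 0.0209 and 0.0486). The median change of the 31 genes in controls was -0.32, beside 0.12 for all genes and -0.31 in drinkers. After scaling the same number of genes, 2, was lower, against 0.189% of all genes. Both calls were lost when any one of X10197, X10198, X10204, X10232 or X10233 was left out.

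The difference between drinkers and controls was tested as an interaction and none of the 31 genes passed, nor did any of the 15324 genes (0% called by limma-trend). An unadjusted p below 0.05 was met by 4 microglia genes, and limma-voom called none. Those 4 were GPR34 (drinkers minus controls 1.07 ± 0.30), P2RY12 (0.73 ± 0.31), RGS10 (0.36 ± 0.15) and HCST (-0.53 ± 0.17), each with an adjusted p of 0.634 by limma-trend. HCST ran from 5.88 to 11.4 TPM in second biopsies of drinkers (median 9.35 TPM) and from 7.60 to 13.2 TPM in their first biopsies (median 11.7 TPM), with 9 of 10 animals lower. In controls it ran from 6.84 to 13.3 TPM in second biopsies (median 9.09 TPM) and from 5.99 to 10.2 TPM in first biopsies (median 7.52 TPM), with 1 of 6 lower. The direct comparison of drinkers with controls within first biopsies called none of the 31 genes (limma-trend; 2 with an unadjusted p below 0.05, HCST higher and GPR34 lower in drinkers), and within second biopsies none of 30 (0 with an unadjusted p below 0.05), and limma-voom called none in either.

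**Figure D4:**
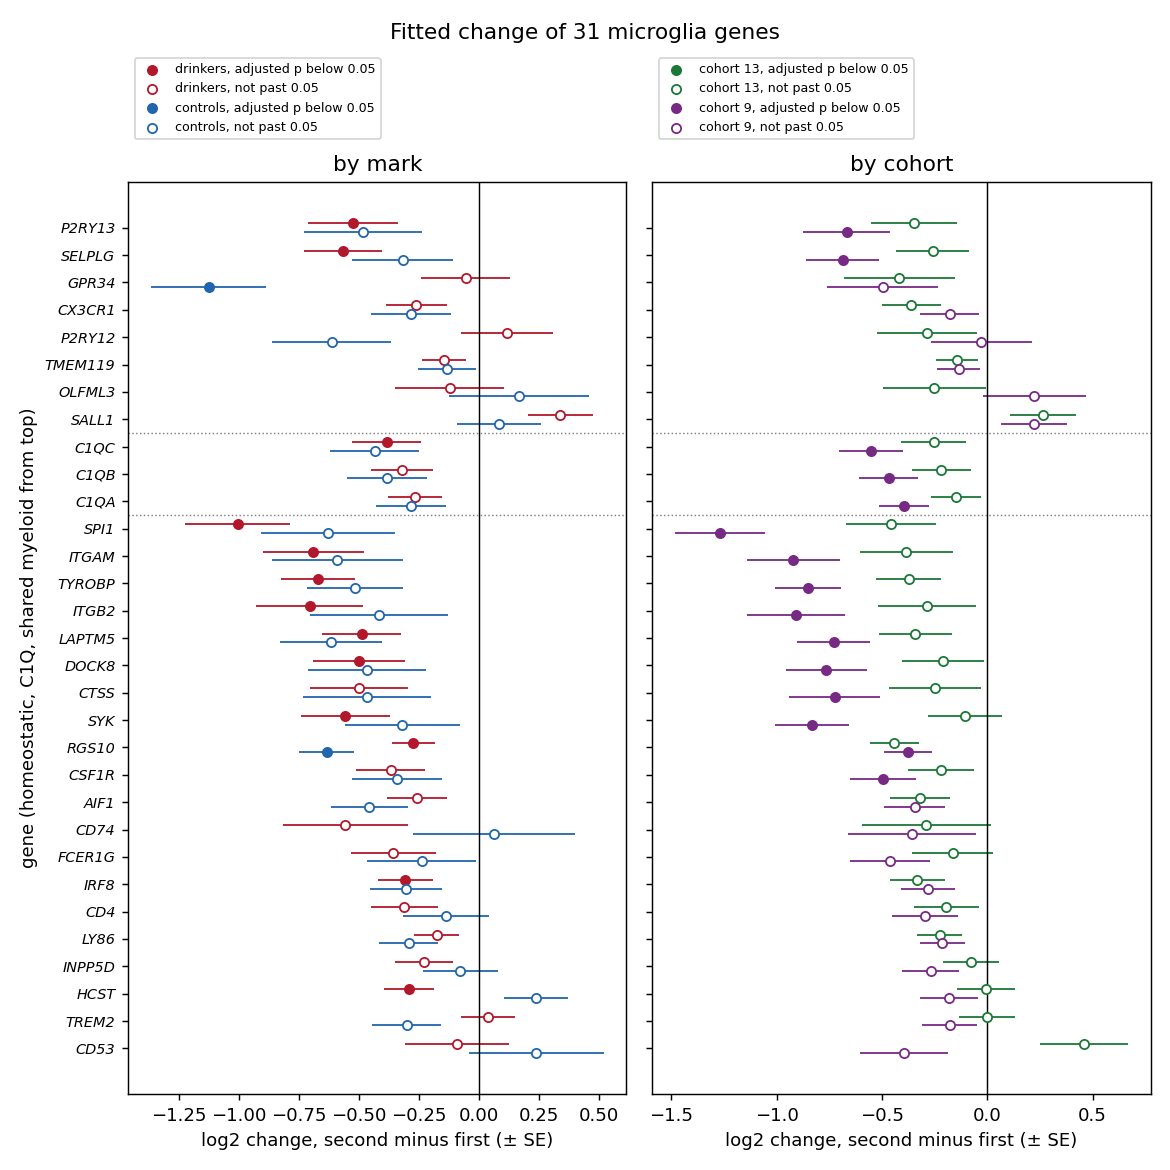
Fitted log2 change ± SE, second minus first biopsy, of the 31 microglia genes in drinkers and controls (left panel) and in cohort 13 and cohort 9 (right panel). Filled points passed an adjusted p of 0.05, which were 13 genes in drinkers, 2 in controls, 0 in cohort 13 and 15 in cohort 9.

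In cohort 13 none of the 31 genes was called (limma-trend; 8 with an unadjusted p below 0.05, of which 7 lower, and 2 lower by limma-voom), against 0.0522% of all genes called lower and 1.02% higher. Their median change was -0.25, beside 0.13 for all genes, and 28 estimates were below 0. The smallest p was that of RGS10, which ran from 6.96 to 14.5 TPM in second biopsies of cohort 13 (median 10.1 TPM) and from 9.36 to 19.3 TPM in first biopsies (median 14.0 TPM), with a change of -0.44 ± 0.11 (limma-trend, adjusted p = 0.0682). CX3CR1 followed with -0.36 ± 0.14 (limma-trend, adjusted p = 0.265). After scaling these 2 genes were called lower, against 0.405% of all genes. CD53 stood out in the other direction, with 21.3 to 60.5 TPM in second biopsies of cohort 13 (median 35.6 TPM) and 16.4 to 49.5 TPM in first biopsies (median 24.2 TPM). It was higher in 6 of 8 animals, and its estimate of 0.46 ± 0.21 did not pass (limma-trend, adjusted p = 0.33).

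In cohort 9, 15 of the 31 genes were lower and none higher (limma-trend), against 4.69% of all genes called lower and 30.5% higher, with a median change of -0.40 beside 0.22 for all genes. After scaling 26 were lower, against 18.3% of all genes. SPI1 ran from 3.27 to 4.58 TPM in second biopsies of cohort 9 (median 3.49 TPM) and from 5.84 to 27.6 TPM in first biopsies (median 8.54 TPM). TYROBP ran from 10.1 to 19.1 TPM in second biopsies of cohort 9 (median 15.1 TPM) and from 19.5 to 38.7 TPM in first biopsies (median 23.1 TPM). SYK ran from 0.856 to 1.55 TPM in second biopsies of cohort 9 (median 1.15 TPM) and from 1.56 to 7.81 TPM in first biopsies (median 2.26 TPM). All 8 animals were lower for each of the 3 genes and the ranges of the biopsies did not overlap. The changes were -1.27 ± 0.21, -0.85 ± 0.16 and -0.83 ± 0.17 (limma-trend, adjusted p = 0.00145, 0.00202 and 0.00369). All 3 C1Q genes, 10 of the 20 shared genes and 2 of the 8 homeostatic genes (SELPLG and P2RY13) were among the 15. Without the 3 pairs of high blood myeloid level, all of them of this cohort, 2 were lower (SPI1 and TYROBP) and OLFML3 was higher in cohort 9.

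The change differed between the cohorts for none of the 31 genes (limma-trend interaction; 4 with an unadjusted p below 0.05, 0 by limma-voom), against 0.0131% of all genes. The 4 were SYK (cohort 13 minus cohort 9 0.73 ± 0.25, adjusted p = 0.582), CD53 (0.85 ± 0.29, adjusted p = 0.587), SPI1 (0.81 ± 0.30, adjusted p = 0.629) and TYROBP (0.48 ± 0.22, adjusted p = 0.658) by limma-trend. CD53 had 8.37 to 28.1 TPM in second biopsies of cohort 9 (median 18.4 TPM) and 15.4 to 30.4 TPM in first biopsies (median 27.4 TPM), with 5 of 8 animals lower. The first biopsies of the cohorts themselves differed in 4 of the 31 genes, all lower in cohort 13. That count was near the share of all genes called lower there, 12%, and so does not set the microglia genes apart. Those called were CTSS (cohort 13 minus cohort 9 -1.17 ± 0.27, adjusted p = 0.00765), SYK (-0.92, adjusted p = 0.0136), DOCK8 (-0.98, adjusted p = 0.0137) and ITGAM (-1.12, adjusted p = 0.0164) by limma-trend. None of them was called without the 3 pairs.

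Split by cohort and mark at once, drinkers of cohort 13 had no gene called (0.0196% of all genes lower) and a median change of -0.23, and controls of cohort 13 had none (0%) and a median of -0.22. Drinkers of cohort 9 had 10 genes lower (2.96%; 22 and 11.6% after scaling) and a median of -0.42, and controls of cohort 9 had none (0.0587%) and a median of -0.46 (limma-trend throughout). An unadjusted p below 0.05 was met by 1 and 6 genes in drinkers and controls of cohort 13 and by 10 in controls of cohort 9, and limma-voom called none in these 3 groups. After scaling the medians were -0.49 in drinkers and -0.22 in controls of cohort 13, and -0.69 in drinkers and -0.75 in controls of cohort 9. The blood myeloid level in first biopsies ran from 14.0 to 60.0 TPM in drinkers and from 24.6 to 40.1 TPM in controls of cohort 13, and from 72.8 to 1563 TPM in drinkers and from 56.6 to 651 TPM in controls of cohort 9. Cohort and RNA code go together, since all 16 libraries of cohort 9 carry 1 code in their sample titles that no library of cohort 13 carries, and cohort and code cannot be told apart.

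The values behind these cells show how single animals weighed. In drinkers of cohort 13 (X10226, X10227, X10229, X10230 and X10236) SPI1 had 2.40, 3.70, 2.95, 4.76 and 4.70 TPM in second biopsies, against 10.3, 5.06, 2.80, 5.73 and 6.36 TPM in first biopsies. In controls of cohort 13 (X10232, X10233 and X10234) it had 3.26, 5.44 and 3.37 TPM in second biopsies, against 3.62, 8.19 and 4.74 TPM in first biopsies. The second biopsies of both groups overlapped the first ones, and X10226 alone had a first biopsy above 10 TPM. In drinkers of cohort 9 (X10200, X10201, X10203, X10206 and X10207) SPI1 had 3.35, 3.68, 3.38, 4.06 and 3.55 TPM in second biopsies, against 15.3, 8.72, 27.6, 7.17 and 8.37 TPM in first biopsies. In controls of cohort 9 (X10197, X10198 and X10204) it had 4.58, 3.27 and 3.43 TPM in second biopsies, against 5.84, 6.26 and 13.2 TPM in first biopsies. Here no second biopsy reached the lowest first biopsy of its group, the 3 pairs of high blood myeloid level included or not.

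For C1QB, a subunit of C1q, other animals set the pattern. In drinkers of cohort 13 it had 18, 25.8, 24.5, 50.2 and 50.1 TPM in second biopsies, against 41.6, 23.4, 27.9, 49.6 and 46.1 TPM in first biopsies. In controls of cohort 13 it had 31.7, 39.9 and 26.8 TPM in second biopsies, against 37.4, 46.2 and 31.7 TPM in first biopsies. Drinkers of cohort 13 were thus split, with X10226 far lower and X10227, X10230 and X10236 a little higher in the second biopsy, while all 3 controls were lower. In drinkers of cohort 9 C1QB had 19.6, 31.5, 36.4, 40.5 and 29.9 TPM in second biopsies, against 48.3, 41.3, 42.7, 49.1 and 29.6 TPM in first biopsies. In controls of cohort 9 it had 43.8, 34.2 and 39.1 TPM in second biopsies, against 64.0, 47.1 and 61.3 TPM in first biopsies. The controls of cohort 9 did not overlap between biopsies, although no gene of the 31 was called in these 3 animals.

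P2RY12 and GPR34 had similar changes in the 2 animals that moved most, but not in every group. In cohort 9 the fitted changes were -0.03 for P2RY12 and -0.50 for GPR34 (limma-trend). In X10232, a control of cohort 13, P2RY12 changed by -2.30 and GPR34 by -2.50, and in X10227, a drinker of cohort 13, they changed by 1.32 and 1.43. Those 2 animals and X10226 are the ones whose biopsies carry different RNA codes in the sample titles, 1 of the 2 being a code found on 3 libraries alone. In these 3 libraries P2RY12 had 3.41 TPM (X10232, second), 10.9 TPM (X10226, first) and 2.82 TPM (X10227, first), against 8.56 to 21.9 TPM (median 17.9 TPM) in the other 13 libraries of cohort 13. GPR34 had 2.37, 5.83 and 1.36 TPM in the same libraries, against 5.38 to 18.0 TPM (median 11.7 TPM) in the other 13. Both genes thus lay below the other 13 libraries in X10232 and X10227, once in a second and once in a first biopsy, and within their range in X10226. In the 13 pairs with 1 code GPR34 was called lower over all pairs (-0.49, limma-trend, adjusted p = 0.0074), in controls (-0.85, limma-trend, adjusted p = 0.0313) and in cohort 9 (-0.50, limma-trend, adjusted p = 0.00973), and P2RY12 in controls had an estimate of -0.27. RGS10 in controls was not called there (limma-trend, adjusted p = 0.0914). What the code stands for is not stated.

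**Figure D5:**
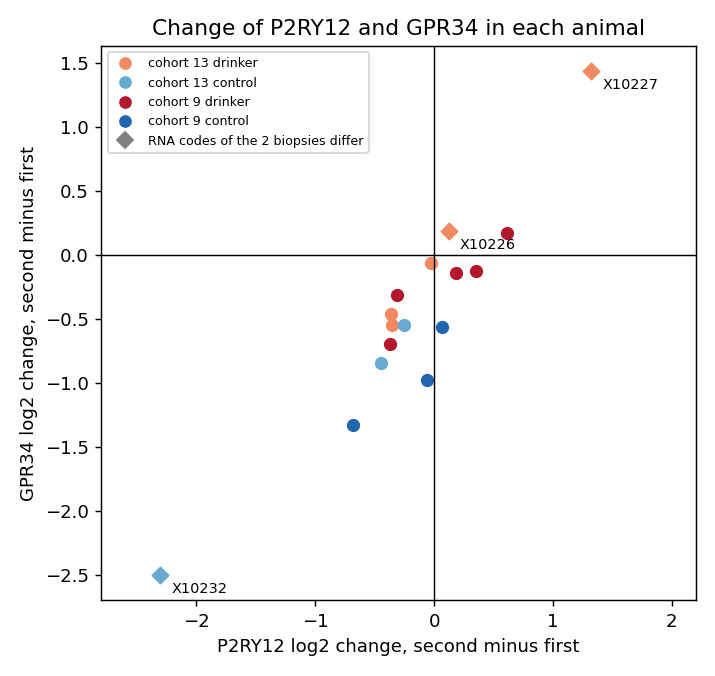
Log2 change, second minus first biopsy, of GPR34 (vertical axis) against that of P2RY12 (horizontal axis) in the 16 animals, coloured by cohort and mark, with diamonds for the 3 animals whose biopsies differ in RNA code. X10232 lies at -2.30 and -2.50 and X10227 at 1.32 and 1.43, far outside the other 14 animals.

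The libraries were not strand specific, so that reads of a gene and of another gene over the same locus cannot be told apart. By the RefSeq annotation of the assembly T2T-MFA8v1.1, used here for neighbourhood alone, 8 of the 33 genes overlap a protein-coding gene and 3 lie wholly inside one: P2RY12 and P2RY13 inside MED12L, a Mediator subunit gene, and GPR34 inside CASK, a synaptic scaffold gene. MED12L changed by -0.53 to 1.03 over the 16 animals and CASK by -0.44 to 0.59. In X10232 both host genes changed by 0.22, while P2RY12 and GPR34 were lower, and in X10227 they changed by 0.31 and 0.29.

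The pathways around these genes were read from lists chosen by name. Among 9 ligands of microglial receptors, TGFB1, the cytokine that maintains the homeostatic state, fell (-0.49, lower in 16 of 16 animals; limma-trend, adjusted p = 0.00513) and CD200, a neuronal ligand that restrains microglia, was higher (0.50, but 0.28 and not called after scaling). CSF1 (0.11), IL34 (0.17) and CX3CL1 (0.27) were not called. Of 7 genes of the TGF-beta response none was lower and 2 were higher, LRRC32 (0.56) and SMAD4 (0.31), neither of them called after scaling. The count of 2 was near the share of all genes called higher as deposited, 32.9%. NRROS, which helps to activate TGF-beta on microglia, was called lower after scaling alone (-0.48, limma-trend, adjusted p = 0.00178). The median change was 0.19 for the ligands and 0.17 for the response genes, close to that of all genes, and after scaling it turned to -0.02 and -0.05.

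Of 12 partners of ITAM signalling 10 were tested, and 6 were lower and none higher by limma-trend, with a median change of -0.43. Of all genes, 3.69% were called lower and 32.9% higher. After scaling 9 were lower, against 17.1% of all genes. VAV1, a signalling exchange factor (-0.57, adjusted p = 0.0065), FGR, a Src family kinase (-0.74, adjusted p = 0.0116), and LCP2, the adaptor SLP-76 (-0.47, adjusted p = 0.0124), had the smallest p by limma-trend. VAV1 averaged 0.825 TPM in second and 2.00 TPM in first biopsies, so that it passed the filter through its first biopsies alone. In drinkers 5 of the 10 were lower and in controls none (3.23 and 0.0522% of all genes), with median changes of -0.43 and -0.36. In cohort 13 none was lower and in cohort 9 there were 7 (0.0522 and 4.69% of all genes). Gene by gene, the difference of the changes was called for 0 of the 10 between drinkers and controls, and for 0 between cohorts (limma-trend). The differences were not tested over the list. These are genes that blood myeloid cells also use.

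Of 12 complement genes beyond C1Q, 4 were lower and 3 higher by limma-trend, against 3.69% of all genes lower and 32.9% higher. The 3 higher genes were thus not more than that share. C3AR1, the C3a receptor, fell most clearly (-0.65, lower in 15 of 16 animals; limma-trend, adjusted p = 0.00067), and C3, the central component, fell by 0.44 with 15 of 16 animals lower; CFD and C5AR1 were the other 2 lower genes. C1S and C1R, the proteases that act with C1q, were higher, C1S by 0.61 (limma-trend, adjusted p = 0.00494) or 0.39 after scaling, where it was still called. C1R was higher by 0.42 and not called after scaling (0.21). CFI, an inhibitor of the cascade, was higher by 0.39 and not called after scaling (0.17). Across the 12 genes the count after scaling was 4 lower and 1 higher, against 17.1 and 9.7% of all genes.

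Of 12 tested genes tied to the disease-associated state of microglia, 2 were lower and 2 higher by limma-trend, with a median change of 0.07. After scaling 4 were lower and 1 was higher, with a median of -0.15. Of all genes 3.69% were lower and 32.9% higher, or 17.1 and 9.7% after scaling. SPP1 (osteopontin) was higher by 0.84 (limma-trend, adjusted p = 0.00329; 0.63 after scaling), APOE, the apolipoprotein, fell by 0.36 (limma-trend, adjusted p = 0.00752), and GPNMB was higher by 0.36 and not called after scaling (0.15). The 7 tested genes of purine breakdown, ATP-gated channels and adenosine receptors held 1 call as deposited. ADORA1, the A1 adenosine receptor, was higher by 0.56 (0.35 after scaling, still called). That count was not above the share of all genes called higher, 32.9%. After scaling ENTPD1, an enzyme that breaks down extracellular ATP (-0.26, limma-trend, adjusted p = 0.0177), and P2RX4, an ATP-gated channel (-0.24, limma-trend, adjusted p = 0.0124), were also called, both lower. Of 14 other genes reported in microglia, 5 were lower and 1 higher (7 and 1 after scaling), against the same shares of all genes. One of those lower, TBXAS1, averaged 0.817 TPM in second and 1.23 TPM in first biopsies and passed the filter through first biopsies alone. SLC2A5, the fructose transporter GLUT5, was lower in 14 of 16 animals (-0.49, limma-trend, adjusted p = 0.00196). SPP1 and APOE are made by other brain cells as well.

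The authors' deposited table gives its own test of the 31 genes. In it 25 of the 31 were lower and none higher in drinkers at an FDR below 0.05, against 15.4% of 18922 genes lower, with a median log2 fold change of -0.62. In controls the authors' deposited table has 3 of the 31 lower, LAPTM5, GPR34 and RGS10, against 0.74% of genes, with a median of -0.54. The 13 genes called in drinkers above were all among the 25, and RGS10 and GPR34 were among the 3. Of the authors' deposited lists of changed genes, 15 of the 31 stand in the 675 lower in drinkers and 2 in the 38 lower in controls. These lists are narrower than the FDR alone, with a smallest absolute log2 fold change of 0.58. LAPTM5, past the FDR in both drinkers (-0.74) and controls (-0.79), stands in neither list.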

How the data were processed

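Poly-A RNA of area 46 biopsies was sequenced without strand orientation. STAR 2.5.2b, HTSeq 0.6.1p1 and DESeq2 are named, per the submitters' processing notes; neither build nor annotation is given in the sources used here. Per the file headers, values deposited for each sample are TPM, and the table also holds the authors' log2 fold changes with adjusted p-values (FDR). Of 38 labelled samples, 32 are in the table, and 6 were not analysed here. Drinkers and controls are told apart by the table header.

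The design had allowed for counts. As the values were TPM, limma 3.58.1 (limma-trend, R 4.3.3) was run on log2(TPM + 1) for genes with a mean of at least 1 TPM, with the animal as a block and Benjamini-Hochberg adjustment at 0.05. Whole reads were recovered from the TPM steps for 29411 of 29437 genes (99.91%, within 1e-06 of the value) for depth and limma-voom; the other 26 were not. Pairing rests on the animal numbers; deviations of an animal's libraries correlated at -0.18 to 0.64 (median 0.33), above 0.1 in 14 of 16. All members were named, and at most the 3 genes of smallest p per other list; CSF1, IL34, CX3CL1 and the further called genes were named after their values were seen. Some members of the other lists are not reported here. The genes and lists were chosen with earlier results of these data known. Scripts were tested on simulated data, and figures drawn with matplotlib 3.10.9 in Python 3.11.15.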

Additional observations from a re-analysis of the deposited data

Results flagged for a closer look

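In groups of 6 to 10 animals, 17 of 124 groups of values had a lowest or highest animal far from the rest by Dixon's 95% criterion, which chance alone meets in about 1 of 20 groups. The groups reuse the same animals and the genes are not independent, so the count does not measure an excess over that rate. In cohort 13, X10226 was the far animal for 8 genes, with changes of -1.73 for SPI1, -1.52 for SELPLG, -1.38 for CSF1R, -1.37 for C1QC, -1.31 for ITGAM, -1.17 for C1QB, -1.09 for OLFML3 and -0.89 for INPP5D. Its biopsies carry different RNA codes. Among drinkers X10226 was also far for TMEM119 (-0.77), X10203 for P2RY13 (-2.39) and X10227 for GPR34 (1.43). Among controls X10204 was far for ITGAM (-1.94), TYROBP (-1.32), SYK (-1.30) and INPP5D (-0.67), X10232 for P2RY12 (-2.30) and X10197 for OLFML3 (2.16). X10203 and X10204 are animals of high blood myeloid level in the first biopsy.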

How the results depend on the processing

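Counts here are microglia genes called by limma-trend, and the cause of each shift was not tested unless named. Without the replicate block 14 were called over all pairs against 19, 6 in drinkers against 13, 0 in controls against 2 and 3 in drinkers of cohort 9 against 10; the block changed no other count by over 1.5 times. Median scaling called 25 in drinkers, 26 in cohort 9 against 15, 2 in cohort 13 against 0 and 22 in drinkers of cohort 9. TPM without mitochondrial genes called 25 in drinkers, 1 in cohort 13 and 10 in first biopsies of cohort 13 against cohort 9 (4 as reported). Limma-voom called 23 in drinkers and 2 in cohort 13. With no filter on low values 6 were called in drinkers, 1 in controls and 4 in drinkers of cohort 9, with a mean of at least 5 TPM, 5 in drinkers of cohort 9 and 1 in first biopsies by cohort, and with a pseudocount of 0.1, 1 in controls. Array weights called 3 in cohort 13, 5 between cohorts, 17 in drinkers and 4 in controls of cohort 9, 4 in controls of cohort 13 and 8 in first biopsies by cohort. Pairs with 1 RNA code gave 3 in drinkers and 1 in controls. Composition covariates gave 3 over all pairs, 2 in drinkers, 1 in controls, 0 in cohort 9 and 0 in its drinkers.

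The next 3 alternatives were added after seeing the data. Without the 3 pairs of high blood myeloid level 4 were called over all pairs, 2 in drinkers, 0 in controls, 3 in cohort 9, 0 in its drinkers and 0 in first biopsies by cohort. The blood myeloid covariate gave 2 over all pairs, 1 in drinkers, 0 in controls, 1 in cohort 9, 1 in its drinkers, 1 in its controls and 1 between cohorts. Both that omission and 1 RNA code gave 3 over all pairs, 0 in drinkers, 0 in controls, 7 in cohort 9 and 1 in its drinkers.

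Leaving out each animal gave 15 to 20 over all pairs, 4 (without X10200) to 16 in drinkers, 0 to 2 in controls (0 without X10197, X10198, X10204, X10232 or X10233, 2 without X10227, X10229 or X10230, otherwise 1), 11 to 16 in cohort 9, 0 (without X10203) to 11 in its drinkers and 4 to 7 (without X10226) in first biopsies by cohort. Drinkers fell to 5 without X10203 and 8 without X10201 or X10226, and drinkers of cohort 9 to 1 without X10200 or X10201; the other counts were 0 throughout. Estimates over all pairs changed sign for 6 genes that were not called. CD53 was -0.18 scaled, -0.10 without mitochondrial genes, -0.11 by limma-voom, -0.18 with array weights and -0.065 with 1 RNA code, and -0.049 to 0.14 when animals were left out. OLFML3 was 0.015 with array weights, 0.064 with 1 RNA code, 0.17 without the 3 pairs, 0.22 with the blood covariate and 0.32 with both omissions, and -0.16 to 0.059 when animals were left out. HCST was 0.022 with composition covariates, FCER1G 0.022 and CD74 0.076 with the blood covariate, and CD74 0.058 and TREM2 0.019 with both omissions. Depth limits the low genes most: the lowest library of each held 6 reads of CD4 and 7 of TMEM119.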
